A study of Saccharomyces cerevisiae with 12 samples.

Results

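The yeast transcription factors with a DNA binding domain of the heat shock factor (HSF) type were followed on expression arrays together with YGL072C, an open reading frame classed as dubious that adjoins HSF1. The 5 factors are HSF1, SKN7, SFL1, MGA1 and HMS2, and with YGL072C they make 6 of the 6307 genes measured. Probes were taken by gene name or systematic identifier, and each of the 6 genes had 1 probe, printed once on each array and detected on all 12 arrays. From these same arrays YGL072C was chosen by its higher level with tangeretin in sgs1Δ cells and the difference between the strains in that response, and MGA1 was chosen by its lower level with tangeretin in wild type (WT) cells. Their values in these contrasts, and in the strain contrasts that share the same arrays, are therefore given as a description without a test. The other 4 genes belong to the group by their domain alone.

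HSF-type factors bind DNA through a winged helix-turn-helix domain that recognises repeats of a short inverted sequence, the heat shock element in the case of Hsf1. Hsf1 is essential in budding yeast, keeps chaperone genes expressed without stress and raises them when proteins misfold. Skn7 also carries a receiver domain of the bacterial two-component type and works with the sensor kinase Sln1, in oxidative stress often beside Yap1. Sfl1 is mainly a repressor of flocculation genes, and Mga1 and Hms2 are linked to filamentous growth.

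Total RNA was measured in 4 groups of 3 arrays with 1 colour, Cy5: sgs1Δ with tangeretin, sgs1Δ control, WT with tangeretin and WT control. Tangeretin, a methoxylated flavone of citrus peel, was given at 30 µM for 4 h at 30 °C in medium without tryptophan, and all groups received 0.2% DMSO, its solvent. The WT strain YCL1071 is MATα with the alleles his3Δ1 and leu2Δ0, further met15Δ0 and ura3Δ0, and trp1∆::HPH. The sgs1Δ strain YCL1098 carries in addition sgs1∆::kanMX4 and so lacks the RecQ helicase Sgs1. Both hold the plasmid pRS414-GAL1-HO-TRP1, with the mating type endonuclease HO behind the galactose promoter. The labels do not say whether a strain is 1 clone, nor whether the repeats of a group are separate cultures, so the p-values measure the spread between these arrays, which may be technical.

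SGS1 read 4 to 7 in raw intensity on the 6 sgs1Δ arrays, where it was not detected, against 108 to 169 on the 6 WT arrays. All 4 α cell markers examined, among them MF(ALPHA)1 and STE3, were detected on all 12 arrays, but so were all 5 a cell markers, among them STE2 and MFA1, so detection did not separate the mating types. All of these markers had a higher raw mean in sgs1Δ than in WT in both media. MF(ALPHA)1 averaged 34400 in sgs1Δ with tangeretin, 20900 in sgs1Δ control, 1320 in WT with tangeretin and 1120 in WT control, and STE3 averaged 2080, 1130, 199 and 161 in the same order, while the a cell marker MFA1 averaged 3280, 2010, 686 and 486. The part of these differences in the strain results was not tested. The median raw intensity of an array was 1367.5 to 1530 in sgs1Δ with tangeretin, 928 to 1344 in sgs1Δ control, 780 to 956 in WT with tangeretin and 530 to 814.5 in WT control, so brightness moved with strain and with treatment. Values below are given both as raw intensity and as quantile-normalized log2 intensity, and all tests use the second. Genes with an adjusted p below 0.05 were called, using limma and Benjamini-Hochberg adjustment across the 6307 genes. By this rule 1.44% of genes were called for tangeretin in sgs1Δ, 3.31% for tangeretin in WT, 48.1% for sgs1Δ against WT in control medium, 45.9% for the same under tangeretin, and 1.49% for the interaction, which is the response of sgs1Δ minus that of WT.

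Of the 6 genes, 1 was called in sgs1Δ with tangeretin, YGL072C (higher, as were 0.745% of all genes), and 1 in WT, MGA1 (lower, as were 1.47%). Both genes also passed this threshold for the interaction, with a positive sign, where 0.761% of all genes passed it with a positive and 0.729% with a negative sign. Since these contrasts, or contrasts that share their arrays, chose both genes, nothing is read from these counts. The interaction of MGA1 did not pass without array 1 or 2 of WT control, or array 2 or 3 of WT tangeretin. Nor did it pass without sgs1Δ control 3 or sgs1Δ tangeretin 1. Each of these made the count 1, beside 12, 7, 14, 35, 18 and 17 of all genes in the same order. HSF1, SKN7, SFL1 and HMS2 were not called for tangeretin in either strain. Between the strains 5 of the 6 were called in control medium and 4 under tangeretin, all lower in sgs1Δ, beside a background of 26.9% and 25.3% of all genes called lower. The counts that include MGA1 and YGL072C follow in part from how they were chosen. With array brightness in the fit, 2 of the 6 were called between the strains in control medium, HMS2 and YGL072C. That fit called 792 of all 6307 genes there. Under tangeretin the fit with brightness called 3, HMS2 and YGL072C lower and MGA1 higher in sgs1Δ, while SKN7 and SFL1 lost their calls. In that medium it called 1112 of all genes.

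The arrays of compared groups were also set side by side without a test. With tangeretin in sgs1Δ, 2 of the 6 genes had arrays that did not overlap, YGL072C higher and HSF1 lower, beside 25.1% of all genes (9.21% higher and 15.9% lower). With tangeretin in WT there were 2, MGA1 and SFL1, both lower, beside 24.3% (11.4% higher and 12.9% lower). Between the strains all 6 did not overlap in control medium, HSF1 higher in sgs1Δ and 5 lower, beside 51.7% (22.1% higher and 29.6% lower). Under tangeretin 4 did not overlap, all lower, beside 57.6% (26.1% higher and 31.6% lower).

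**Figure D1:**
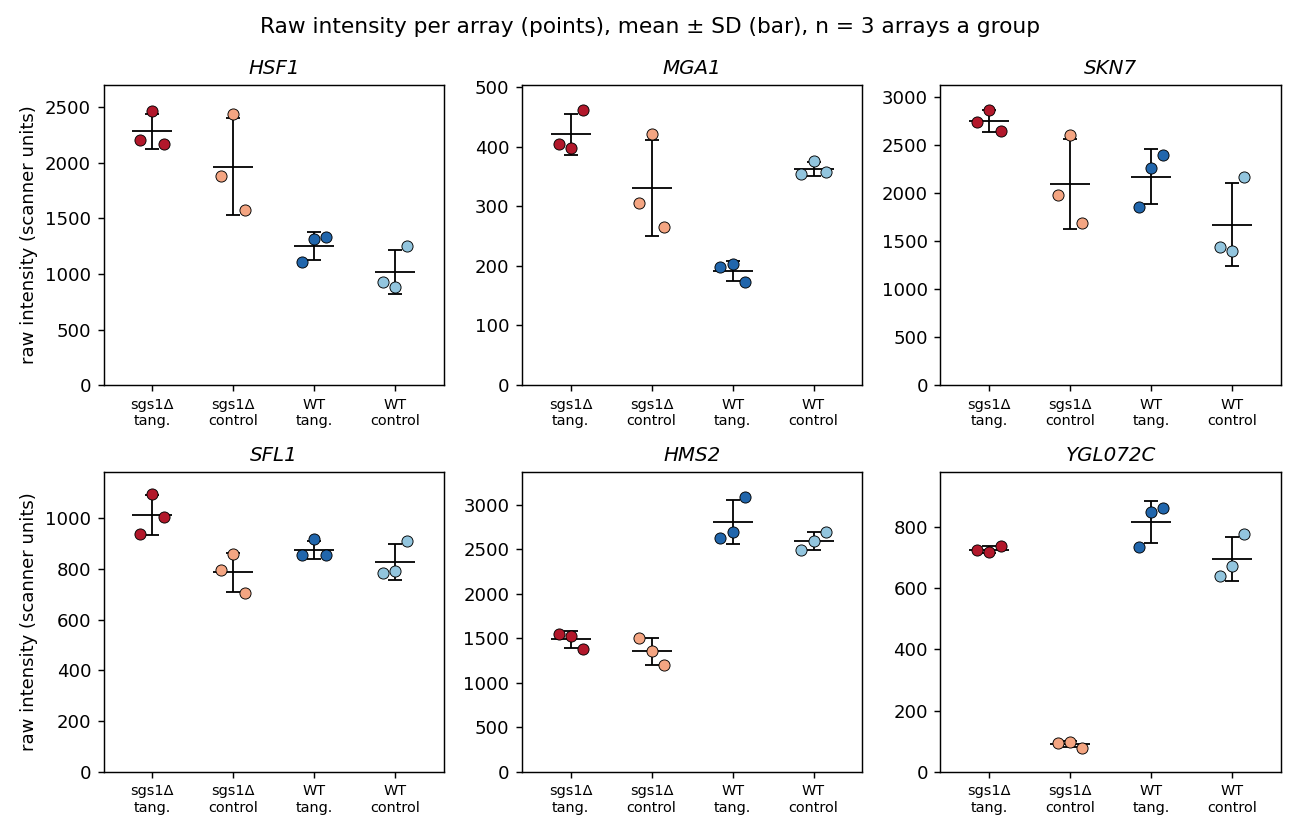
Raw intensity (y axis, scanner units, starting at 0) of the 6 genes on each of the 12 arrays (points), with mean and SD of the 3 arrays of a group. YGL072C sits at 79 to 98 on the sgs1Δ control arrays and at 639 or above on all others, and MGA1 at 173 to 204 on the WT tangeretin arrays and at 266 or above on all others.

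**Figure D2:**
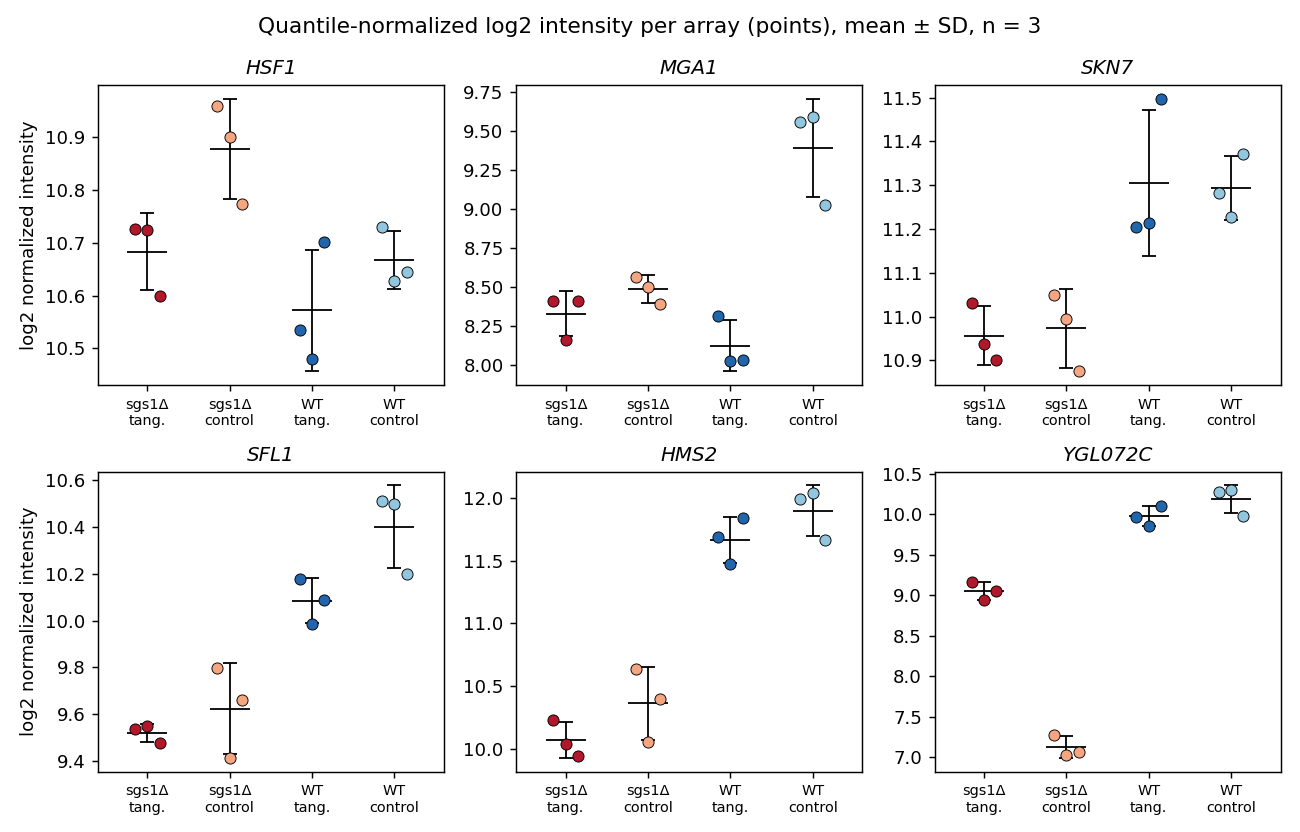
The same arrays after quantile normalization (y axis, log2 intensity), with mean and SD of 3 arrays. HMS2 lies between 9.95 and 10.64 on the sgs1Δ arrays and between 11.48 and 12.03 on the WT arrays.

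HSF1 (YGL073W, chromosome VII, 368753 to 371254 in the R64 assembly) showed no called difference in any contrast. HSF1 read 2208, 2467 and 2175 in raw intensity in sgs1Δ with tangeretin, and 1885, 2439 and 1575 in sgs1Δ control. In WT it read 1105, 1312 and 1336 with tangeretin, and 925, 881 and 1250 in control. The raw values of the strains did not overlap, with sgs1Δ above WT, and the ratio of raw means in control medium was 1.93 where that of the median gene was 1.58. On the normalized scale tangeretin gave a log2 difference of -0.20 in sgs1Δ (SE 0.09, 95% interval -0.39 to 0.00, adjusted p = 0.222 with limma, n = 3 per group) and of -0.10 in WT (SE 0.09, adjusted p = 0.483). In sgs1Δ the tangeretin arrays, at 10.60 to 10.73, all lay below the control arrays, at 10.77 to 10.96. The strain difference was 0.21 in control medium (95% interval 0.02 to 0.40, adjusted p = 0.0645), where all sgs1Δ arrays lay above all WT arrays, and 0.11 under tangeretin (95% interval -0.08 to 0.30, adjusted p = 0.324). The strain difference in control medium was called with 75th percentile scaling (0.30, adjusted p = 0.0127), with cyclic loess (0.27, adjusted p = 0.0198), and without WT tangeretin 3 or sgs1Δ control 3 (adjusted p = 0.0476 and 0.0499). Over the 12 arrays, the normalized values of VIP1, an inositol polyphosphate kinase gene, CNS1, a co-chaperone gene of Hsp90, and DAL1, the allantoinase gene, were most like those of HSF1 (Pearson's r 0.94, 0.92 and 0.91). Here and below such values describe 12 arrays of 4 groups, and the arrays share strain, treatment and brightness.

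Of the core targets of Hsf1, chaperones and their cofactors, 0 were called for tangeretin in sgs1Δ, 2 in WT, and 11 and 8 between the strains (control medium and tangeretin). SSA2 shares its probes with SSA1 and was not measured alone, which left 17 of 18 genes. In sgs1Δ no target was called with tangeretin by limma, 3 had an unadjusted p under 0.05, and the median was -0.05, against -0.02 over all genes. With single arrays left out the count of called targets was at most 1, beside 13 to 744 of all genes. It was 1 with replicate number as a block and 1 with only the compared groups fitted (78 and 34 of all genes). With array weights it was 4, beside 1599 of all genes. HSP78, the mitochondrial disaggregase gene, had the largest difference, 1.00 (SE 0.26, adjusted p = 0.0665), the 5th highest of 6307 genes, and its tangeretin and control arrays did not overlap. In WT 2 of the 17 fell with tangeretin, beside 1.47% of all genes, the small heat shock protein gene HSP42 by 0.61 on the log2 scale (SE 0.11, adjusted p = 0.0131) and FES1, the nucleotide exchange factor of Hsp70, by 0.46 (SE 0.10, adjusted p = 0.0327). None was called higher, and 6 had an unadjusted p under 0.05. The Hsp40 gene YDJ1 gave 0.90 (SE 0.24, adjusted p = 0.0551), the 23rd highest of 6307 genes, with arrays that did not overlap. The median over the list in WT was 0.00, against -0.04 over all genes. Leaving out array 1 or 2 of WT control, or array 2 or 3 of WT tangeretin, brought the count of 2 to 0. Brightness in the fit and a fit of only the compared groups did so too. These fits called 29, 26, 31, 30, 7 and 50 of all 6307 genes in the same order. The count was 1 without sgs1Δ control 3, without the offset or with the authors' values, which called 92, 89 and 89 of all genes. It was 5 without WT control 3 and 9 with array weights, where 1665 and 2645 of all genes were called. For the interaction no target was called by limma and 7 had an unadjusted p under 0.05. However, 3 were called with brightness in the fit, 2 without WT control 3, 1 without sgs1Δ tangeretin 3 and 8 with array weights. Those fits called 205, 346, 70 and 1530 of all genes in the same order.

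Between the strains, 9 of the 17 targets were higher and 2 lower in sgs1Δ in control medium, beside 21.2% and 26.9% of all genes, with a list median of 0.29 against -0.03 over all genes. The largest were HSP78 at 1.24 (SE 0.26, adjusted p = 0.00139), YDJ1 at 0.99 (SE 0.24) and FES1 at 0.77 (SE 0.10). Under tangeretin 6 were higher and 2 lower, beside 20.6% and 25.3% of all genes, with a median of 0.20 against -0.05. HSP78 stood at 2.08 (SE 0.26, adjusted p = 2.16e-05), FES1 at 1.18 (SE 0.10) and HSP42 at 0.90 (SE 0.11). FES1 lies on the right arm of chromosome II, whose 301 genes had a median strain difference of 0.72 in control medium and 0.68 under tangeretin, and the 110 genes of its left arm had 0.74 and 0.65. The part of the chromosome in the FES1 difference was not tested. The count of called targets in control medium, 11 in all, was 7 without WT control 2, sgs1Δ control 2 or sgs1Δ control 3. It was 1 with brightness in the fit. Those fits called 2297, 2639, 2542 and 792 of all genes in the same order. Under tangeretin the count was 4 with brightness, against 8, and that fit called 1112 of all genes.

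SKN7 (YHR206W, chromosome VIII, 512732 to 514600) was lower in sgs1Δ than in WT in both media after normalization. It read 2736, 2868 and 2642 in sgs1Δ with tangeretin, 1985, 2608 and 1684 in sgs1Δ control, 1850, 2265 and 2397 in WT with tangeretin and 1439, 1400 and 2168 in WT control. In raw intensity SKN7 was thus not lower in sgs1Δ, and its ratio of raw means in control medium, 1.25, lay under the 1.58 of the median gene. The normalized strain difference was -0.32 in control medium (SE 0.10, 1.25-fold lower, adjusted p = 0.0147, n = 3 per group) and -0.35 under tangeretin (SE 0.10, 1.27-fold lower, adjusted p = 0.00951), and the arrays of the strains did not overlap in either medium. The first lost its call without sgs1Δ control 3 (-0.27, adjusted p = 0.0637), and both lost it with brightness in the fit, at a larger size (-0.39 and -0.42, adjusted p = 0.143 and 0.0949). Tangeretin gave -0.02 in sgs1Δ (95% interval -0.22 to 0.19, adjusted p = 0.939) and 0.01 in WT (95% interval -0.20 to 0.22, adjusted p = 0.946). The genes most like SKN7 were RRP40, an exosome subunit gene, SYT1 and VAC17, which acts in vacuole inheritance (r 0.97, 0.96 and 0.96).

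All 3 genes of the Sln1 phosphorelay were higher in sgs1Δ in control medium, beside 21.2% of all genes. The phosphotransfer protein gene YPD1 rose by 1.08 (SE 0.22, adjusted p = 0.00139), SSK1, whose product is the other response regulator that Ypd1 serves besides Skn7, by 0.51 (SE 0.11) and the sensor kinase gene SLN1 by 0.32 (SE 0.11, adjusted p = 0.0319). Under tangeretin YPD1 (1.03) and SSK1 (0.43) were called higher, beside 20.6% of all genes. None was called with brightness in the fit in either medium, beside 792 of all genes in control medium and 1112 under tangeretin. Among 7 genes that Skn7 activates, 3 were higher and 3 lower in sgs1Δ in control medium, beside 21.2% and 26.9% of all genes, with a median of -0.06 against -0.03 over all genes. The peroxidase gene GPX2, which lies on the right arm of chromosome II, stood at 1.19 (SE 0.22, adjusted p = 0.000706), the thioredoxin gene TRX2 at 0.69 (SE 0.19) and the peroxiredoxin gene AHP1 at 0.55 (SE 0.12). The mannosyltransferase gene OCH1 (-0.40), the cytochrome c peroxidase gene CCP1 (-0.33) and the thioredoxin reductase gene TRR1 (-0.25) were lower. Under tangeretin GPX2 was higher (1.23), and TRR1 (-0.32) and OCH1 (-0.28) were lower, beside 20.6% and 25.3% of all genes. In that medium 5 of the 7 genes were called without WT control 3, beside 3112 of all genes. None of the 7 was called with brightness in the fit in either medium. With tangeretin none of these 10 genes was called by limma in either strain, beside 1.44% of all genes in sgs1Δ and 3.31% in WT. In sgs1Δ 2 Skn7 targets and 0 phosphorelay genes had an unadjusted p under 0.05, in WT 3 and 1. Without WT control 3, 2 of each list were called in WT, beside 1665 of all 6307 genes.

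SFL1 (YOR140W, chromosome XV, 586981 to 589281) was also lower in sgs1Δ after normalization. It read 940, 1098 and 1004 in sgs1Δ with tangeretin, 798, 859 and 707 in sgs1Δ control, 856, 918 and 857 in WT with tangeretin and 786, 791 and 912 in WT control. The raw values of the strains overlapped in control medium, at a ratio of means of 0.95 where the median gene had 1.58. Under tangeretin each raw sgs1Δ value lay above each WT value, at a ratio of 1.16 where the median gene had 1.56. The normalized strain difference was -0.78 in control medium (SE 0.11, 1.71-fold lower, adjusted p = 0.000101, n = 3 per group) and -0.56 under tangeretin (SE 0.11, 1.48-fold lower, adjusted p = 0.00115). With brightness in the fit these were -0.36 (adjusted p = 0.0898) and -0.15 (adjusted p = 0.478). Tangeretin gave -0.10 in sgs1Δ (95% interval -0.35 to 0.14, adjusted p = 0.634) and -0.32 in WT (95% interval -0.56 to -0.07, adjusted p = 0.107). In WT the tangeretin arrays, at 9.99 to 10.18, all lay below the control arrays, at 10.20 to 10.51, with no overlap. That difference was called without WT control 3 (-0.42, adjusted p = 0.0177) and with array weights (-0.41, adjusted p = 0.00385). YMR084W, ISF1 and YNL203C were most like SFL1 (r 0.99 each).

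Of 6 genes that are targets or partners of Sfl1, 2 were higher and 2 lower in sgs1Δ in each medium, where 48.1% (control) and 45.9% (tangeretin) of all genes were called. In control medium CYC8, a corepressor gene on the right arm of chromosome II, stood at 0.95 (SE 0.12, adjusted p = 2.95e-05), TPK2, a catalytic subunit gene of protein kinase A, at 0.47 (SE 0.16, adjusted p = 0.0242) and the flocculin gene FLO11 at -0.52 (SE 0.16, adjusted p = 0.0175). Under tangeretin HSP30 stood at 1.26 (SE 0.14, adjusted p = 9.84e-06), TPK2 at 0.70 and TUP1, the partner of Cyc8 in the corepressor, at -0.58. The count of 4 was 2 with brightness in the fit in either medium, and 2 in control medium without WT control 1. With brightness 792 and 1112 of all genes were called (control medium and tangeretin), and 2422 in control medium without WT control 1. With tangeretin none of the 6 was called in sgs1Δ by limma, beside 1.44% of all genes, and 3 had an unadjusted p under 0.05. In WT 1 was called lower, HSP30, beside 1.47% of all genes. HSP30, a stress gene of the plasma membrane that Sfl1 is reported to activate, fell by 1.16 on the log2 scale (SE 0.14, adjusted p = 0.00164). Its interaction was 1.47 (SE 0.20, adjusted p = 0.00495). The Sfl1 list was chosen with earlier results of these data known, so these HSP30 values are a description. The counts of 0 and 1 were 2 each without sgs1Δ control 2 (sgs1Δ) and without WT control 3 (WT). Those fits called 744 and 1665 of all 6307 genes.

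**Figure D3:**
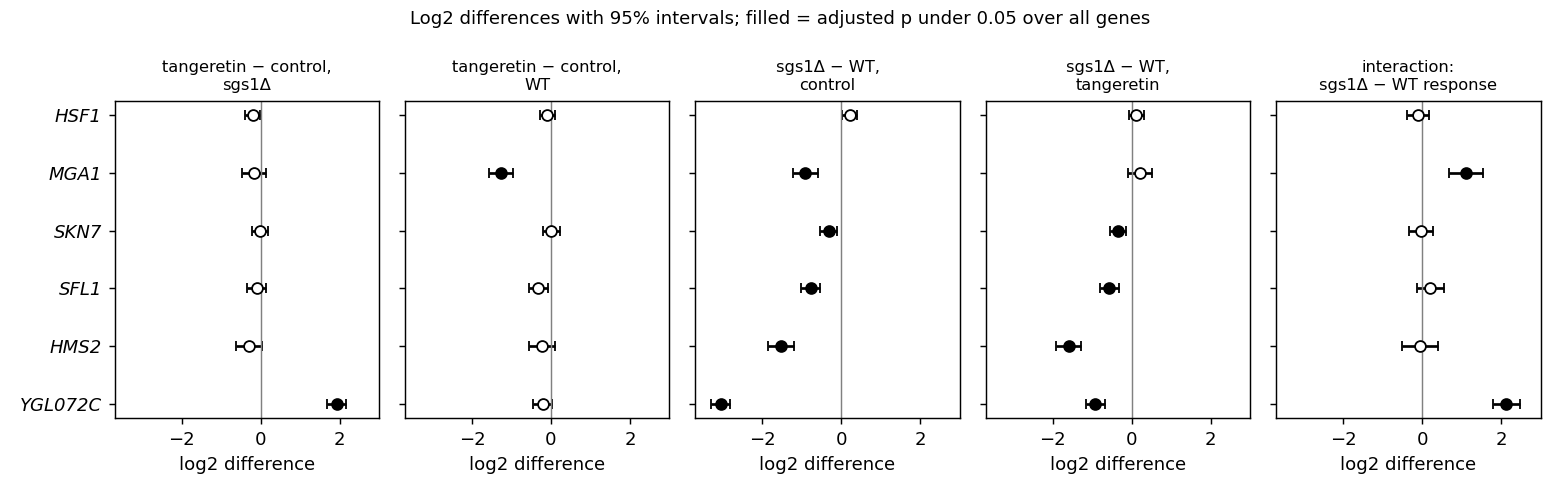
Log2 difference (x axis) of the 6 genes in the 5 contrasts, with 95% intervals from the fit of all 12 arrays; filled points have an adjusted p under 0.05 over all genes. HMS2 stands apart from 0 between the strains in both media (-1.53 and -1.59). MGA1 was chosen by its value in WT with tangeretin (-1.27) and YGL072C by its value in sgs1Δ with tangeretin (1.93). Their filled points and intervals are therefore a description without a test.

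MGA1 (YGR249W, chromosome VII, 988049 to 989419) was lowest with tangeretin in WT in raw intensity, and its level in sgs1Δ showed no called response. It read 404, 398 and 461 in sgs1Δ with tangeretin and 305, 421 and 266 in sgs1Δ control. In WT it read 198, 204 and 173 with tangeretin and 354, 376 and 358 in control. The WT tangeretin arrays were brighter on the whole than the WT control arrays, yet MGA1 was dimmer on them, at a ratio of raw means of 0.528 where the median gene had 1.33. In sgs1Δ the ratio was 1.27 where the median gene had 1.34. In RNA of whole cultures, fewer cells with a transcript and less of it per cell cannot be told apart.

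In sgs1Δ, on arrays outside the contrast that chose it, MGA1 averaged 8.33 ± 0.14 with tangeretin and 8.48 ± 0.09 in control after normalization (log2, SD, n = 3). That difference was -0.16 (SE 0.14, 95% interval -0.46 to 0.15, adjusted p = 0.555 with limma), and the arrays overlapped. In WT it averaged 8.12 ± 0.17 with tangeretin and 9.39 ± 0.32 in control, a difference of -1.27 (SE 0.14), or 2.41-fold lower, the second lowest of 6307 genes. The WT tangeretin arrays, at 8.02 to 8.32, lay below the WT control arrays, of which WT control 3, the brightest of its group, stood at 9.03 and the others at 9.56 and 9.59. The interaction was 1.11 (SE 0.20). Between the strains MGA1 gave -0.91 (SE 0.14) in control medium and 0.20 (SE 0.14) under tangeretin. In order of normalized level WT control came first, above all arrays of the other groups. Then came sgs1Δ control, sgs1Δ with tangeretin and WT with tangeretin, of which each overlapped the next. The raw values of the strains overlapped in control medium, and brightness in the fit gave -0.47 there, no longer past the threshold, and 0.63 under tangeretin, now past it, as was the 0.33 of 75th percentile scaling. The WT response was between -1.46 and -1.01 in all 25 alternatives.

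JIP4, BSC1 and PCL10, a cyclin gene of the kinase Pho85, were most like MGA1 over the 12 arrays (r 0.98, 0.96 and 0.96). Their log2 differences with tangeretin were -0.20, -0.18 and -0.09 in sgs1Δ, and -0.96, -0.99 and -0.41 in WT. Among the neighbours of MGA1 on chromosome VII, RIE1 (YGR250C, 991176 to 993521, on the other strand) fell in WT with tangeretin by 0.53 (SE 0.12, adjusted p = 0.0388) and gave -0.08 in sgs1Δ (adjusted p = 0.745). CPD1, SOL4 and NOP19 lay between 0.07 and 0.16 in WT and were not called. SOL4, the gene before MGA1, was higher in sgs1Δ by 0.99 in control medium and by 1.16 under tangeretin (SE 0.11 each, adjusted p = 1.33e-05 and 2.97e-06), opposite in sign to MGA1 in control medium. However, SOL4 read only 11, 13 and 30 in WT control, undetected on arrays 1 and 2, and 33, 35 and 42 in WT with tangeretin. These raw values lie under the offset of 50 added to every intensity, so the size of its log2 differences depends on that offset.

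HMS2 (YJR147W, chromosome X, 704196 to 705272) had the largest strain difference of the 5 factors, about 3-fold in both media. It read 1549, 1530 and 1384 in sgs1Δ with tangeretin, 1500, 1362 and 1200 in sgs1Δ control, 2633, 2700 and 3089 in WT with tangeretin and 2493, 2596 and 2695 in WT control. Each sgs1Δ array was thus below each WT array even in raw intensity, although the sgs1Δ arrays were the brighter ones on the whole. After normalization HMS2 averaged 10.07 ± 0.14 in sgs1Δ with tangeretin and 11.67 ± 0.18 in WT with tangeretin, a difference of -1.59 (SE 0.15, 3.02-fold lower, adjusted p = 1.97e-06, n = 3 per group). In control medium it averaged 10.37 ± 0.29 in sgs1Δ and 11.90 ± 0.20 in WT, a difference of -1.53 (SE 0.15, 2.89-fold lower, adjusted p = 3.21e-06). These were the 21st and 24th lowest strain differences of 6307 genes. They were -1.03 and -0.96 with brightness in the fit (adjusted p = 0.00115 and 0.0025) and stayed called in all 25 alternatives.

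Tangeretin gave -0.29 for HMS2 in sgs1Δ (95% interval -0.61 to 0.03, adjusted p = 0.279) and -0.23 in WT (95% interval -0.55 to 0.09, adjusted p = 0.315), and the interaction was -0.06 (95% interval -0.52 to 0.39). The WT value was called with array weights (-0.39). The genes on the right arm of chromosome X had a median strain difference of -0.04 in control medium and -0.12 under tangeretin. YJR146W overlaps HMS2 by 43 bases on the same strand. After normalization it differed between the strains by -0.83 in control medium and -0.53 under tangeretin (SE 0.14 each, adjusted p = 0.00041 and 0.00832). Unlike HMS2, its raw values overlapped between the strains, at 113, 128 and 123 in sgs1Δ control and 97, 153 and 161 in WT control. With tangeretin YJR146W read 162, 165 and 219 in sgs1Δ and 173, 166 and 142 in WT. BAT2, the gene of the cytosolic branched-chain aminotransferase and next downstream of HMS2, gave -0.05 and 0.04 and was not called. ALE2, INO1, the inositol phosphate synthase gene, and CIN5, a transcription factor gene of the Yap family, were most like HMS2 (r 0.998, 0.996 and 0.994), with strain differences in control medium of -0.71, -1.52 and -1.35.

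Genes of filamentous growth, the process to which MGA1, HMS2 and SFL1 are linked, were called in both directions between the strains. Of 15 genes, 4 were higher and 6 lower in sgs1Δ in each medium, beside 21.2% and 26.9% of all genes in control medium and 20.6% and 25.3% under tangeretin, with a median of -0.16 in control medium and -0.32 under tangeretin, against -0.03 and -0.05 over all genes. The repressor gene NRG2, on the right arm of chromosome II, stood at 1.84 in control medium and 1.64 under tangeretin (SE 0.11 each, adjusted p = 2.72e-08 and 7.38e-08), its relative NRG1 at 0.66 and 0.53, and PHD1, an activator of pseudohyphal growth, at -0.92 and -0.70. The count of 10 in control medium was 5 or 6 without WT control 1, WT control 2, sgs1Δ control 2 or sgs1Δ control 3. Under tangeretin it was 6 without sgs1Δ tangeretin 1. With brightness in the fit the counts were 2 and 3 (control medium and tangeretin). Without single arrays these fits called 2422, 2297, 2639, 2542 and 2504 of all genes in the same order, and with brightness 792 and 1112. With tangeretin no gene of the list was called in sgs1Δ by limma, beside 1.44% of all genes. An unadjusted p under 0.05 was seen for 4. In sgs1Δ 4 genes were called with array weights and 1 without sgs1Δ control 2, beside 1599 and 744 of all genes. In WT 1 was called lower, the factor gene HMS1, beside 1.47% of all genes. HMS1 fell by 0.53 on the log2 scale (SE 0.12, adjusted p = 0.0329). That call was lost without array 1 or 2 of WT control, array 2 or 3 of WT tangeretin, or sgs1Δ control 3. It was also lost when arrays were scaled by cyclic loess or by their 75th percentile, when only the compared groups were fitted, and with brightness in the fit. Without WT control 3, 5 genes of the list were called, and 7 with array weights. Those fits called 1665 and 2645 of all 6307 genes.

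YGL072C was far lower in sgs1Δ control cells than in the other groups. It read 723, 716 and 737 in sgs1Δ with tangeretin and 93, 98 and 79 in sgs1Δ control. In WT it read 735, 848 and 861 with tangeretin and 639, 671 and 776 in control. The sgs1Δ control arrays thus stood alone, at a spread of 9.85 (SD, n = 3) around a mean of 90.0, while the other 9 arrays lay between 639 and 861. The spot was detected on all 3 of these low arrays, and its level was about the same on each. The ratio of raw means in sgs1Δ, tangeretin over control, was 8.06 where the median gene had 1.34.

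After normalization YGL072C averaged 9.05 ± 0.11 in sgs1Δ with tangeretin and 7.12 ± 0.13 in sgs1Δ control, a difference of 1.93 (SE 0.11), or 3.81-fold higher. In WT it averaged 9.97 ± 0.12 with tangeretin and 10.18 ± 0.17 in control, a difference of -0.21 (SE 0.11), and the arrays overlapped. The interaction was 2.14 (SE 0.16). Between the strains YGL072C gave -3.06 (SE 0.11, 8.33-fold lower) in control medium and -0.92 (SE 0.11, 1.89-fold lower) under tangeretin, so on the normalized scale sgs1Δ with tangeretin stayed below both WT groups, whereas its raw values reached those of WT. With brightness in the fit the difference under tangeretin was -0.59. In all 25 alternatives the response in sgs1Δ lay between 1.86 and 2.43 and the strain difference in control medium between -3.66 and -2.72. The raw values of sgs1Δ control, 79 to 98, lie near the offset of 50 added to every intensity. The size of both log2 differences therefore depends on that offset.

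The mean of sgs1Δ control lay 1.93 below the lowest of the other group means, the second largest such gap of 6307 genes. The largest, 1.94, was that of GTA1, which read -3, 4 and 2752 on the sgs1Δ control arrays and 1 on WT control 2, against 1931 to 4554 on the other arrays, and so rested on spots that were undetected on single arrays, unlike YGL072C. The next gaps were 0.68 for PEX27 and 0.59 for DAK1. DAK1, a dihydroxyacetone kinase gene, was most like YGL072C over the 12 arrays (r 0.99), followed by MFG1, a regulator of filamentous growth, and PUS7, a pseudouridine synthase gene (r 0.95 and 0.94). DAK1 read 5215, 5362 and 5335 in sgs1Δ with tangeretin and 2512, 3309 and 2294 in sgs1Δ control. Its normalized difference with tangeretin was 0.59 in sgs1Δ and -0.09 in WT, and that of MFG1 was 0.52 and -0.32.

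By its systematic name YGL072C lies on the Crick strand of the left arm of chromosome VII, between HSF1 and AFT1, which are both on the Watson strand and are 757 bases apart in the R64 assembly. The name gives only the order of the genes, and the annotation used here holds no entry for YGL072C. Its own coordinates, and whether it overlaps HSF1 or AFT1, are therefore not given. No source used here gives the strand that the probe reads, so signal from this frame and from transcripts of the opposite strand cannot be told apart. The genes on either side had other values. AFT1 (YGL071W, 372012 to 374084), the gene of the main iron regulator, read 2762, 3309 and 2687 in sgs1Δ with tangeretin, 1981, 2908 and 1778 in sgs1Δ control, 660, 1060 and 974 in WT with tangeretin and 466, 478 and 876 in WT control. AFT1 was higher in sgs1Δ by 1.08 in control medium (SE 0.12, adjusted p = 1.02e-05) and by 0.95 under tangeretin (SE 0.12, adjusted p = 3.12e-05), and its difference with tangeretin was -0.01 in sgs1Δ (adjusted p = 0.965) and 0.12 in WT (adjusted p = 0.509). HSF1 gave -0.20 in sgs1Δ where YGL072C gave 1.93, and over the 12 arrays their normalized values correlated at r = -0.75. After normalization MPS2, on the other side of HSF1, differed between the strains by -0.53 and -0.52 (control medium and tangeretin, adjusted p = 0.00131 and 0.00154) and was not called for tangeretin. In raw intensity MPS2 was not lower in sgs1Δ, at 440, 509 and 365 in sgs1Δ control and 325, 328 and 427 in WT control. With tangeretin it read 516, 553 and 518 in sgs1Δ and 405, 434 and 454 in WT.

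**Figure D4:**
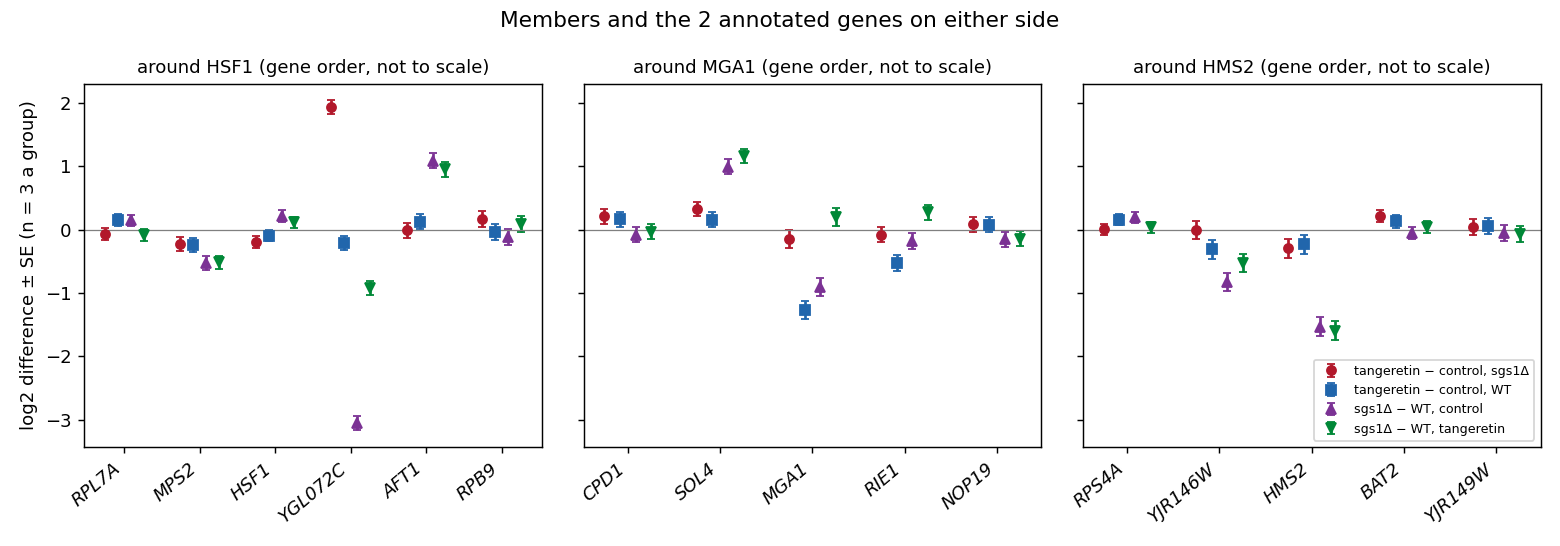
Log2 difference ± SE (y axis, n = 3 arrays per group) of HSF1, YGL072C, MGA1 and HMS2 and the annotated genes around them, in gene order and not to scale. YGL072C (1.93 in sgs1Δ with tangeretin, -3.06 between the strains in control medium) departs from HSF1 and AFT1 on its sides, and HMS2 (-1.53) is flanked by YJR146W (-0.83) and BAT2 (-0.05) in control medium.

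**Figure D5:**
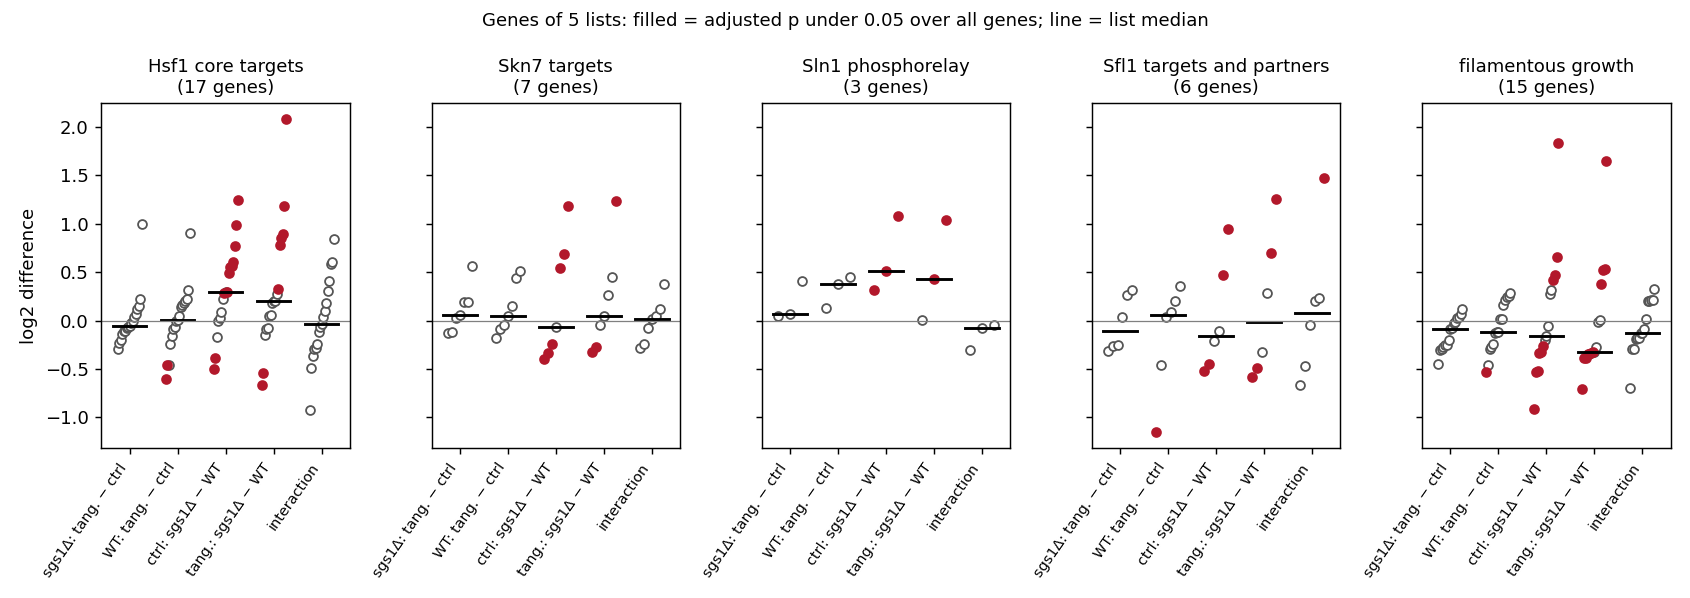
Log2 difference (y axis) of every measured gene of the 5 lists in each contrast, with the list median as a line; filled points have an adjusted p under 0.05 over all genes. The Hsf1 targets have medians of 0.29 and 0.20 between the strains (control medium and tangeretin), and most called genes of all lists lie in the strain contrasts.

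Among the 5 factors, values over the 12 arrays went together most for SFL1 and HMS2 (r = 0.97), followed by SKN7 and HMS2 (r = 0.88), and these 3 genes were all lower in sgs1Δ. HSF1, whose mean was higher in sgs1Δ in both media without a call, correlated with these 3 genes at -0.44 to -0.32. The 5 factors lie on 4 chromosomes, and the arms that hold them had median strain differences of -0.09 to -0.03 in control medium.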

How the data were processed

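The authors deposited the raw intensity of each spot, per the file headers, from 1-colour Phalanx OneArray arrays labelled with Cy5, and a scanner flag of another kind, whose value 0 was read here as detected. Background appears already subtracted, since the 2158 empty spots had a median of 0 to 1. The authors also deposited normalized log2 values, which correlated with log2 raw intensity at 0.9993 to 0.9999. Their method and any scan or slide batch are not given in the sources used, and the array numbers in the file headers run in order through the groups, so array number and group cannot be told apart.

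Repeat spots of 1 probe were averaged, negative intensities set to 0 and an offset of 50 added, leaving out control and empty spots. The 6958 probes were normalized by quantiles and put on the log2 scale (limma 3.58.1, R 4.3.3). Probes detected on fewer than 3 arrays (301) were left out, and each gene took its brightest probe, which left 6307 genes. Symbols and coordinates come from RefSeq R64, which matched 6228 probes. A single limma model (lmFit, eBayes) held the 4 groups without covariates, with 8 residual degrees of freedom (13.67 after moderation). P-values are two-sided. The number of arrays, 3 per group, limits the precision. The fit was tested on simulated data.

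The 6 genes, the gene lists (from textbook knowledge) and the rules were chosen with earlier results of these data known. The rule named the 6 genes, up to 3 called genes of each list and contrast by size of change, the 3 genes most like each of the 6, and the 2 neighbours on either side of HSF1, MGA1 and YGL072C. GTA1, PEX27 and the neighbours of HMS2 were chosen after their values were seen. Alternatives were the offset, the scaling, the filters, the authors' values, the mean of probes, fitting only the compared groups, blocking by replicate number, the variance model, array weights, array brightness (log2 median raw intensity) and each array left out. Same-numbered arrays of different groups deviated together with r of -0.42 to 0.51, over 0.1 in 9 of 18 pairs, so the numbers were not taken to pair the arrays.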

Additional observations from a re-analysis of the deposited data

Results flagged for a closer look

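For 6 of the genes named, the response to tangeretin differed between the strains in the interaction of the fit, given here as the response of sgs1Δ minus that of WT on the log2 scale. For YGL072C it was 2.14 and for MGA1 1.11, in contrasts that chose these genes or share arrays with those that did. MFG1 (0.84) and DAK1 (0.69) were named for their likeness to YGL072C, and BSC1 (0.81) for its likeness to MGA1. These 5 values are therefore a description without a test. For HSP30, a gene of the Sfl1 list, it was 1.47. That list was chosen with earlier results of these data known, so this value is a description too.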

How the results depend on the processing

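Over 25 alternatives, the 6 genes gave 750 log2 differences, of which 703 kept direction and side of the threshold, 12 lost their call, 10 gained one and 25 changed sign. Of the 6 genes, 4 were called with tangeretin in WT with array weights, where 2645 of all 6307 genes were called. With array brightness in the fit, 2 were called between the strains in control medium, where 792 of all genes were called. Without 1 array the counts were 1 to 2 in WT, beside 26 to 1665 of all genes. For the interaction they were 1 to 2, beside 7 to 346 of all genes. MGA1 lost its interaction call without WT control 1 or 2, WT tangeretin 2 or 3, sgs1Δ control 3 or sgs1Δ tangeretin 1. No gene that changed sign was called on either side. With brightness these were HMS2 (0.038 in sgs1Δ, 0.108 in WT), MGA1 (0.094 in sgs1Δ), SFL1 (0.14 in sgs1Δ) and SKN7 (-0.031 in WT). With array weights they were SKN7 (0.062 in sgs1Δ, -0.011 in WT, 0.074 for the interaction), and for the interaction HMS2 (0.096) and HSF1 (0.021). With cyclic loess they were SKN7 in sgs1Δ (0.018) and HMS2 for the interaction (0.009), and with 75th percentile scaling SKN7 in sgs1Δ (0.022). Without 1 array the interaction was -0.212 to 0.076 for HMS2 and -0.079 to 0.068 for SKN7, and SKN7 gave -0.066 to 0.022 in sgs1Δ and -0.084 to 0.062 in WT. The cause was not tested. With replicate number as a block, a pairing the data did not bear out, 457 genes were called with tangeretin in WT, against 209 without it, and the calls of the 6 genes did not change: YGL072C gave 1.93 in sgs1Δ and MGA1 -1.27 in WT. Over all genes, brightness gave 17 calls with tangeretin in sgs1Δ, 7 in WT, 792 and 1112 between the strains (control medium and tangeretin) and 205 for the interaction, and array weights gave 1599 in sgs1Δ, 2645 in WT and 1530 for the interaction. The authors' values gave 61 in sgs1Δ, 89 in WT and 44 for the interaction, and fits of only the compared groups gave 34 in sgs1Δ and 50 in WT. No offset gave 55 in sgs1Δ and 89 in WT, leaving out the dimmest genes gave 120 in WT, and 75th percentile scaling gave 55 for the interaction. Each gene rests on 1 probe and 3 arrays per group.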
